A study of Mus musculus with 6 samples.

Results

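The respiratory chain subunits that are encoded in the nucleus were examined in sorted mouse hepatocytes. Members were taken by gene name (names that begin with Nduf and a letter a, b, c, s or v and a digit, the 4 Sdh subunits, and names that begin with Uqcr, Cox4 to Cox8 or Atp5), and 6 names marked as pseudogenes were left out. The rule gave 83 of the 49315 genes of the count table: 37 of complex I, 4 of complex II, 8 of complex III, 18 of complex IV and 16 of complex V. All 83 were protein coding in the GENCODE M21 annotation of GRCm38. The 6 pseudogenes together held 39 to 105 counts per library.

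Complexes I to IV pass electrons from NADH and succinate to oxygen, and complexes I, III and IV pump protons across the inner mitochondrial membrane. Complex V, the ATP synthase, uses the proton gradient to make ATP. Subunits of complexes I, III, IV and V come from both the nuclear and the mitochondrial genome, whereas complex II is wholly nuclear. Hepatocytes are rich in mitochondria and depend on this chain for urea synthesis, glucose output and fat oxidation.

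RNA came from wild-type male C57BL/6J mice that were injected at 8 weeks of age. By the design text, 3 mice received 20 µg of a transposon plasmid in which a TTR promoter, active in hepatocytes, drives miR-206 and GFP from 1 transcript, with 0.8 µg of a second plasmid that supplies the Sleeping Beauty transposase. Liver cells were isolated by perfusion 4 weeks later and sorted into GFP-negative hepatocytes (control, 3 libraries) and GFP-positive hepatocytes (miR-206, 3 libraries). The sample labels instead say that the controls received an empty vector, and the counts do not show which holds. By the design text the contrast also carries plasmid uptake, GFP and the sort, and these cannot be told apart from miR-206.

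The libraries held 4157947 to 15244017 counts. Mitochondrially encoded genes took 36.0%, 9.16% and 10.4% of the counts in control 1 to 3 and 11.2%, 63.8% and 48.7% in miR-206 1 to 3. Receptor genes of smell and pheromone sensing, which hepatocytes are not known to express, gave 1.26 to 3.05 counts per exonic kb in control and 3.70 to 5.45 in miR-206 libraries, a density used here as the background of each library. Control 1 stood apart, with log2 CPM (counts scaled to library size) that correlated with the other controls at 0.85 and 0.86, against 0.96 between those. No library held a count of the Mir206 gene (a limit of 0.722 CPM in the shallowest), so the labels could not be checked on it.

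The mature microRNA that the plasmid carries and the only match to its seed found among the members are shown first. Shorter matches and other parts of the transcripts were not searched. The sequence of miR-206-3p is from RefSeq (GRCm38.p6, chromosome 1, 20679055 to 20679076, plus strand), with its seed, bases 2 to 8, in capitals.
mmu-miR-206-3p: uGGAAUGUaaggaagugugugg
The seed match was found in the longest annotated 3′ UTR of 1 of 78 tested members (1.28%), against 1971 of 16865 tested genes (11.7%). The median length of that UTR was 260 bases in the members and 1272 bases in the tested genes. The match lay in Uqcrq, a small subunit of complex III, and is in capitals below.
Uqcrq: gaaagcatgagACATTCCcttgactgcta

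Promoters of the members are described next, and no link between promoter letters and fold change was tested. RefSeq (GRCm38.p6) gave a window of 250 bases before to 50 bases after the start for 68 of the 83 members. Both strands were searched for the letters GCGCATGCGC (NRF1), CCGGAAG (GABPA), AAGATGGC (YY1) and AAGGTCA (ERR), factors known to act on genes of mitochondrial energy supply. The NRF1 letters read the same on both strands, and CCGGAAG can overlap the YY1 or ERR letters by AAG. NRF1 letters stood in 5 of the 68 members (7.35%), against 1.07% of all 27025 genes with a window, whether or not they were expressed. GABPA letters stood in 16 (23.5%, against 9.93%), YY1 letters in 10 (14.7%, against 3.19%) and ERR letters in 8 (11.8%, against 5.38%). Of the 68 members, 32 held at least 1 of the 4 and 6 held more than 1. A match describes letters in the window and is not a measured site. In the 3 examples below, from complexes V, IV and II, the matched letters are in capitals on the strand of the gene, so that a motif on the other strand appears as its reverse complement (CTTCCGG for GABPA, TGACCTT for ERR). Atp5k (chr5:108434350-108434649, minus strand) held NRF1, GABPA and ERR letters.
Atp5k: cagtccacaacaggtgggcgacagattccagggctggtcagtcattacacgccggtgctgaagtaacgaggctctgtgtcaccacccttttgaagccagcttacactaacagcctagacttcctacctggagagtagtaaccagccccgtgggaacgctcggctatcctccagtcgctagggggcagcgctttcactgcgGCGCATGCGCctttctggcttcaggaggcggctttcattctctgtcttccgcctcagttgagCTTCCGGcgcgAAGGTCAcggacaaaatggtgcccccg
Cox6a1 (chr5:115348909-115349208, minus strand) held NRF1 and GABPA letters.
Cox6a1: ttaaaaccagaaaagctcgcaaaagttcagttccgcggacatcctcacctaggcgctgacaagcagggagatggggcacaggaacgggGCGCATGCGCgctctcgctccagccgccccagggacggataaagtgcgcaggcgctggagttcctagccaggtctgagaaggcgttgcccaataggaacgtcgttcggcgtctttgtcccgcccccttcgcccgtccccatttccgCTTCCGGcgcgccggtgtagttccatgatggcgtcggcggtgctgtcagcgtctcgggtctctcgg
Sdhd (chr9:50603800-50604099, minus strand) held GABPA and ERR letters.
Sdhd: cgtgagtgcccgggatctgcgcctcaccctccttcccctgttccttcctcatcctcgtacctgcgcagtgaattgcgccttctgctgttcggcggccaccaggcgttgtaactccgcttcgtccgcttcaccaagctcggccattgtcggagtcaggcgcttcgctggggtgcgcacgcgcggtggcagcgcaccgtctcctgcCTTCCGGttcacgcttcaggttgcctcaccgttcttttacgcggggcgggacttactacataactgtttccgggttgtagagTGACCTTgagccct

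The miR-206 libraries were compared with the controls, described as GFP-negative cells or as empty vector. The comparison asks which of these transcripts differ in hepatocytes that carry the miR-206 plasmid. Transcripts of all 5 complexes were lower in the miR-206 libraries. The members together took 0.819%, 2.06% and 2.01% of the counts in control 1 to 3 and 0.278%, 0.178% and 0.210% in miR-206 1 to 3. The 95% Wilson intervals, 0.174% to 0.182% for the lowest share and 2.06% to 2.07% for the highest, cover counting error only. The groups did not overlap, and control 1 lay between the other controls and the miR-206 libraries. As a share of nuclear counts alone, the members took 1.28%, 2.27% and 2.24% in the controls against 0.313%, 0.492% and 0.409% in the miR-206 libraries. The library miR-206 1, whose mitochondrial share resembled that of controls 2 and 3, had a member share of 0.278% against 2.06% and 2.01%. That single library also had the fewest counts and the highest receptor background (5.45 counts per exonic kb). The part of the mitochondrial share in the low member share was not tested.

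Of the 83 members, 78 had enough counts to be tested, and 76 of these fell by the edgeR quasi-likelihood test with TMM factors (adjusted p from 0.00032 to 0.0055 over all genes tested). None rose, and 77 passed at an unadjusted p under 0.05, with Cox7b2 the addition. DESeq2 also called 76 lower and none higher. Falls made up 29.6% and rises 25.8% of all 24382 genes tested. Among the 1169 nuclear protein-coding genes with a mean of at least 50 CPM, 86.3% fell, with a median log2 fold change of -3.10. All 64 members of that level fell, with a median of -4.02, and the 25th percentile over those 1169 genes was -3.74. The mean was taken over all 6 libraries, so a gene could reach it through the controls alone. Uqcrc2 did so, with a mean of 117 CPM in the control and 18.1 CPM in the miR-206 libraries. Falls among genes chosen in this way are partly built in, for the members and for the 1169 genes alike. On this scale a fall was the rule among nuclear protein-coding genes so chosen, and the median of the 64 members lay below the 25th percentile of all 1169. Of the tested members, 74 were above the count filter (1.36 CPM) in all 6 libraries, and Cox7a1, Cox7b2, Cox8c and Atp5s were not. In bulk RNA, fewer cells with these transcripts and less RNA per cell cannot be told apart.

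The median log2 fold change of the 78 tested members was -3.97, with quartiles of -4.26 and -3.61, beside 0.45 over all genes. Of the 76 that fell, 73 fell by at least 3 log2 units and 36 by at least 4. In all 76 the CPM of every miR-206 library lay below every control, which held for 16.8% of all genes tested and for 62.5% of the abundant ones. In 74 of the 76 control 1 was the lowest control. Without control 1, 76 members fell and none rose, with a median of -4.40. Mean CPM in the controls was 1.58 to 16.4 times that in the miR-206 libraries, with a median of 7.14. These ratios on library size are smaller than the fitted folds, because TMM factors were 0.629 to 0.849 in control and 1.12 to 1.94 in miR-206 libraries. The 76 genes lie on 19 chromosomes.

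**Figure D1:**
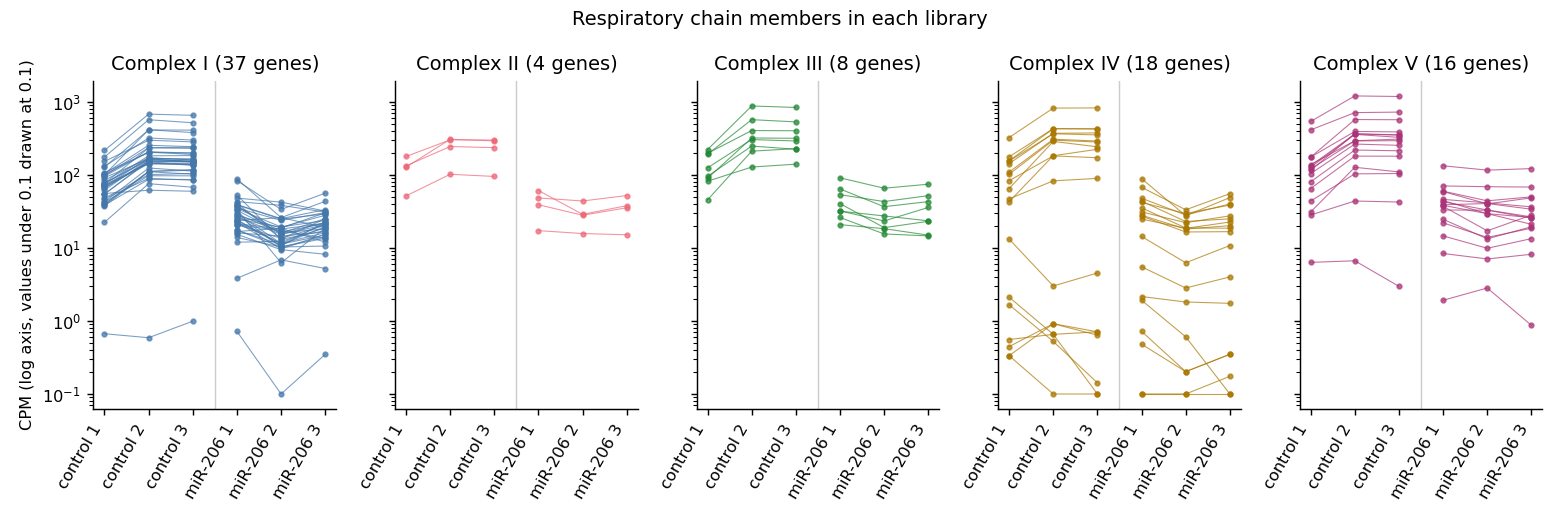
CPM of each of the 83 members (log axis, values under 0.1 drawn at 0.1) in control 1 to 3 and miR-206 1 to 3, in a panel for each complex, with a line joining the points of 1 gene within a group and no order among libraries. Summed members of complex I lay at 2904 to 7271 CPM in the controls and 619 to 1111 CPM in the miR-206 libraries.

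Complex I, the NADH dehydrogenase, was lower in all 36 tested members, with a median of -3.87 (-4.75 to -1.69). Their summed level was 2904, 7271 and 6975 CPM in control 1 to 3 and 1111, 619 and 795 CPM in miR-206 1 to 3, so that the lowest control was above the highest miR-206 library. The conserved nuclear core subunits include those that carry the flavin and iron-sulphur centres of the electron path. Among the core subunits, with or without such a centre, Ndufv1 (-4.13), Ndufv2 (-3.77), Ndufs3 (-3.61), Ndufs7 (-4.29) and Ndufs8 (-4.41) fell.
The core subunit Ndufs1, which holds iron-sulphur centres of the electron path (chromosome 1, 63143596 to 63176833), changed least in the complex. It was counted at 55.9, 62.0 and 59.98 CPM in the controls and at 43.3, 38.5 and 31.1 CPM in the miR-206 libraries. The groups did not overlap, and the fitted log2 change was -1.69 (SE 0.38, edgeR adjusted p = 0.0044). With library size alone the value was -0.64 (adjusted p = 0.154), and with libraries scaled on hepatocyte genes it was 0.43. Its exonic length is 8086 bases, and in the miR-206 libraries it lay at 4.84 times the receptor background.

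The accessory subunits of complex I surround the core and are needed for its assembly and stability. Ndufa1, a short membrane subunit, was counted at 101, 418 and 382 CPM in the controls and at 41.1, 13.4 and 25.2 CPM in the miR-206 libraries. Every miR-206 library was below every control (-4.72, SE 0.72, edgeR adjusted p = 0.000657), and per exonic kb it was the most abundant member of the complex in the controls, at 716 CPM per kb. Ndufb3, a subunit of the membrane arm, changed most, from 38.7, 87.4 and 86.8 CPM to 3.85, 6.88 and 5.24 CPM. The lowest control lay well above the highest miR-206 library (-4.75, SE 0.61, adjusted p = 0.000348).
Ndufb9, also of the membrane arm, fell from 176, 573 and 521 CPM to 48.3, 42.5 and 32.1 CPM (-4.47, SE 0.67). Ndufa4, named as a complex I gene but known as a subunit found with cytochrome c oxidase, fell from 218, 684 and 659 CPM to 83.9, 33.8 and 56.4 CPM (-4.35, SE 0.67). Ndufa13, a membrane-spanning subunit, fell from 129, 415 and 413 CPM to 88.5, 26.1 and 43.7 CPM (-3.83, SE 0.67). In these genes miR-206 1 was the highest of its group and the nearest to control 1. Ndufc2 changed least among the accessory subunits, from 47.2, 90.1 and 85.1 CPM to 33.7, 6.28 and 18.9 CPM (-3.15, SE 0.55, edgeR adjusted p = 0.00126). The other accessory subunits tested fell by 3.20 to 4.14.

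Complex II, succinate dehydrogenase, links the tricarboxylic acid cycle to the chain and has no mitochondrially encoded subunit. All 4 members fell, with a median of -3.47 (-3.93 to -3.41), the smallest median of the 5 complexes. The flavoprotein Sdha was counted at 180, 304 and 302 CPM in the controls and at 48.6, 44.1 and 52.4 CPM in the miR-206 libraries. The groups did not overlap and the miR-206 libraries lay close to each other (-3.49, SE 0.53, edgeR adjusted p = 0.000617). The iron-sulphur subunit Sdhb was at 128, 310 and 294 CPM and at 39.2, 28.1 and 35.6 CPM (-3.93, SE 0.58, adjusted p = 0.00055). The membrane anchors Sdhc and Sdhd, which bind the quinone, fell by 3.44 (SE 0.49) and 3.41 (SE 0.51). Summed over the complex, the level was 795 ± 261 CPM in the controls and 142 ± 24.7 CPM in the miR-206 libraries (SD, n = 3 each), a ratio of 5.61.

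Complex III, the cytochrome bc1 complex, passes electrons from quinol to cytochrome c. All 8 members fell, with a median of -4.14 (-4.49 to -3.68). Uqcrq, which holds the miR-206 seed match shown above, was counted at 224, 884 and 844 CPM in the controls and at 91.6, 66.0 and 74.9 CPM in the miR-206 libraries. Its value of -4.20 (SE 0.70, edgeR adjusted p = 0.00101) lay within the range of the 7 members without a match. The hinge protein Uqcrh, which aids the contact with cytochrome c1, fell most, from 96.1, 250 and 226 CPM to 26.2, 15.6 and 14.7 CPM (-4.49, SE 0.59, adjusted p = 0.000375).
The small subunits Uqcr11 and Uqcr10 fell by 4.32 (SE 0.64) and 4.33 (SE 0.66). Uqcr11 was the most abundant of the complex per exonic kb, at 677 CPM per kb in the controls and 75.2 CPM per kb in the miR-206 libraries. The core protein Uqcrc2 fell from 82.4, 129 and 141 CPM to 20.9, 18.4 and 15.0 CPM (-3.76, SE 0.49). The Rieske iron-sulphur protein Uqcrfs1 was at 45.7, 213 and 230 CPM in the controls and at 32.0, 27.5 and 23.6 CPM in the miR-206 libraries. Its control 1 lay much nearer to the miR-206 libraries than to the other controls, and its value was -3.68 (SE 0.70, edgeR adjusted p = 0.00189).

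Complex IV, cytochrome c oxidase, reduces oxygen to water. Of its 18 members, 14 were tested and 12 fell. The median of the 14 was -4.17, and summed over the complex the ratio of control to miR-206 CPM was 8.57, the highest of the 5. Cox4i1, the ubiquitous form of the largest nuclear subunit (chromosome 8, 120668222 to 120674207), was counted at 326, 827 and 832 CPM in the controls. It was counted at 68.1, 33.4 and 55.6 CPM in the miR-206 libraries. Every miR-206 library was far below every control, and the value was -4.81 (SE 0.65, edgeR adjusted p = 0.000406).
Cox6a1, the liver-type form of a regulatory subunit, was at 157, 432 and 430 CPM in the controls and 89.5, 27.7 and 49.1 CPM in the miR-206 libraries (-3.84, SE 0.64). Here miR-206 1 was closest to control 1. Per exonic kb, Cox6a1 and Cox8a, a small membrane subunit, had similar control levels of 484 and 482 CPM per kb, followed by Cox4i1 at 427 and Cox6b1, which joins the monomers of the dimer, at 414. Cox8a fell by 4.44 (SE 0.62) and Cox6b1 by 4.09 (SE 0.59), and Cox7a2, the liver form of another small subunit, fell by 4.25 (SE 0.61).

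The 8 tissue-restricted forms among the members were at low levels. Cox7a1, the heart and skeletal muscle form, was the only 1 of them to fall. Its raw counts were 119, 46 and 64 in the controls, against 3, 1 and 2 with miR-206, a mean of 0.743 times the receptor background, which gives a ratio of miR-206 to control CPM of 0.0677 (95% counting interval 0.0246 to 0.150). It passed the count filter through the controls. Cox7b2, a testis form, was at 0.335, 0.918 and 0.711 CPM in the controls and at 5.53, 2.84 and 4.02 CPM in the miR-206 libraries. Every miR-206 library was above every control, at 7.55 times the receptor background, and the value of 1.48 (SE 0.62) did not pass (edgeR adjusted p = 0.0623).
Cox8c, also known from testis, was at 0.142 to 1.67 CPM in the controls and 1.75 to 2.17 CPM in the miR-206 libraries (0.43, adjusted p = 0.638). The other 5 were not tested. Cox6a2, a muscle form, was at 0.558 to 0.711 CPM in the controls and at 0 in the miR-206 libraries, where 3 counts are 0.524 to 0.722 CPM, so no fold is given. The ratio of miR-206 to control was 0.947 (0.428 to 1.94) for Cox4i2, known from lung, and 0.0957 (0.00234 to 0.580) for Cox6b2, a testis form. It was 0.445 (0.135 to 1.16) for Ndufa4l2, a hypoxia-induced form, and 3.23 (0.695 to 16.3) for Cox8b, a muscle form.

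Complex V fell in all 16 members, with a median of -4.02 (-4.58 to -2.41). Atp5b, the catalytic beta subunit (chromosome 10, 128083273 to 128090391), was the most counted member of all. It was at 542, 1214 and 1193 CPM in the controls and at 134, 117 and 123 CPM in the miR-206 libraries. The groups did not overlap, and the miR-206 libraries differed little among themselves (-4.06, SE 0.63, edgeR adjusted p = 0.000665). Atp5a1, the alpha subunit of the same catalytic ring, was at 416, 717 and 729 CPM and at 71.0, 69.2 and 68.5 CPM (-4.21, SE 0.58). Atp5o, of the peripheral stalk, fell most, from 105, 266 and 256 CPM to 24.8, 13.4 and 19.6 CPM (-4.58, SE 0.60, adjusted p = 0.000363).
Atp5d, of the central stalk, fell by 4.46 (SE 0.61), and Atp5h, of the peripheral stalk, fell by 4.26 (SE 0.59). Atp5g3, which encodes the proton-carrying ring protein as do Atp5g1 and Atp5g2, fell by 4.29 (SE 0.66), and reads shared among these 3 similar genes are uncertain. Atp5l, the g subunit of the membrane part, changed least. It was at 44.1, 104 and 105 CPM in the controls and at 43.1, 33.2 and 26.7 CPM in the miR-206 libraries. Control 1 and miR-206 1 nearly met, and the value was -2.41 (SE 0.51, edgeR adjusted p = 0.00331). Atp5s, named as a coupling factor, was at 2.99 to 6.69 CPM in the controls and at 0.874 to 2.84 CPM in the miR-206 libraries, 1.01 times the receptor background (-2.48, SE 0.58). With library size alone its value was -1.50 (adjusted p = 0.0585).

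**Figure D2:**
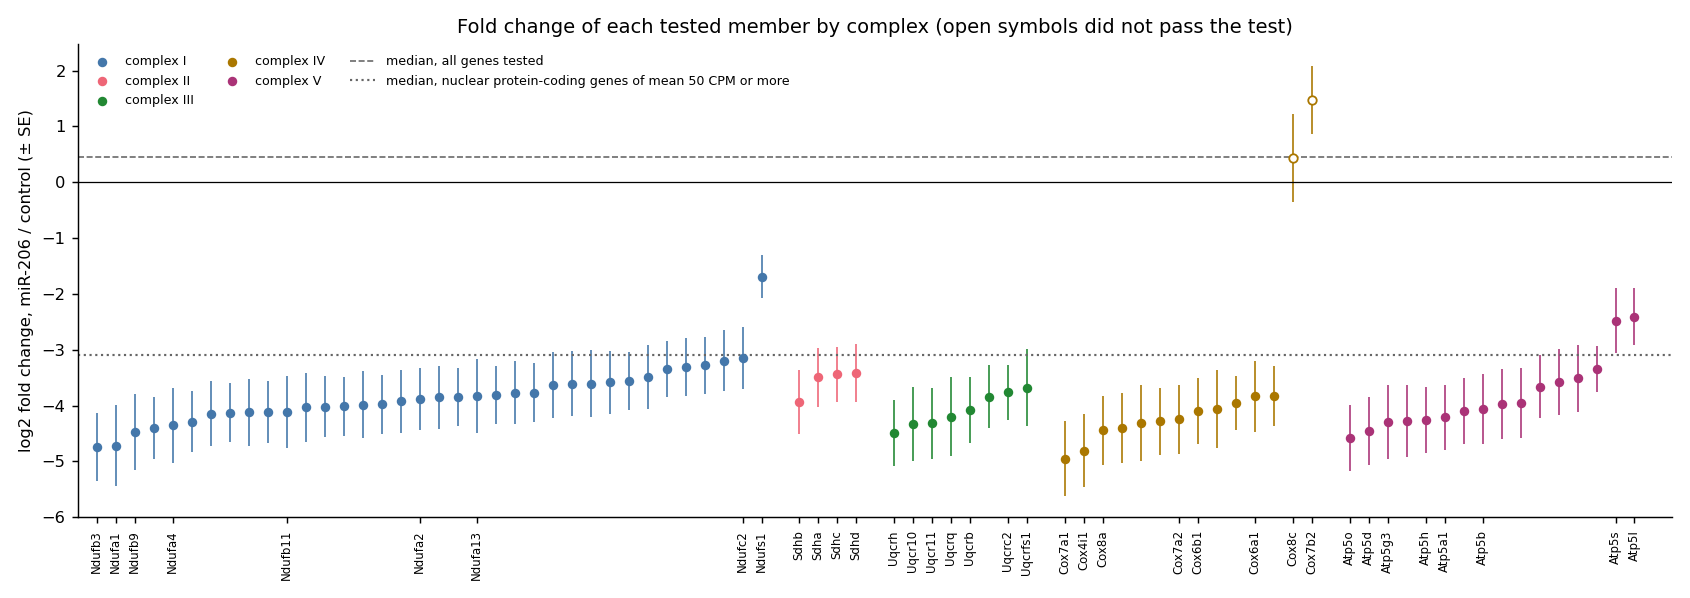
Log2 fold change of miR-206 against control with its SE for each of the 78 tested members, coloured by complex, with open symbols for the 2 that did not pass and names under the members chosen by the naming rule. The medians of all genes tested (0.45) and of abundant nuclear protein-coding genes (-3.10) are drawn as dashed and dotted lines, and 73 members lie at -3 or below.

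Shares within a complex compare subunits with each other in the same library, so that no scaling between libraries enters. Shares of 28 of the 83 members (33.7%) did not overlap between the groups: 11 of 37 in complex I, 1 of 4 in complex II, 3 of 8 in complex III, 6 of 18 in complex IV and 7 of 16 in complex V. Shares of the abundant nuclear protein-coding genes in their own sum, a wider total, did not overlap in 68.6% of 1169 genes. The examples that follow were chosen after their shares were seen, and the 95% Wilson intervals of these shares reach at most 1.91 percentage points to either side. Ndufs1 made up 1.92%, 0.853% and 0.860% of the nuclear complex I counts in the controls against 3.90%, 6.21% and 3.91% in the miR-206 libraries. Atp5l made up 1.91%, 1.88% and 1.93% of complex V in the controls against 6.34%, 6.12% and 4.86% in the miR-206 libraries. Both took a larger part of their complex in each miR-206 library than in any control.
Atp5f1, the b subunit of the peripheral stalk, was also higher within complex V, at 5.54% to 6.52% in the controls against 8.17% to 9.15% in the miR-206 libraries. Ndufb2 was at 2.14% to 2.26% and 3.18% to 3.86% of complex I, and Uqcrfs1 at 4.33% to 7.69% and 8.33% to 11% of complex III. Cox4i1 went the other way, with 22.8%, 21.8% and 22.3% of complex IV in the controls against 14.7%, 13.4% and 16.7% in the miR-206 libraries. Atp5o was at 4.53% to 4.80% of complex V in the controls against 2.46% to 3.65% in the miR-206 libraries. The groups stayed apart in the same direction for all 7 after the receptor background was taken off by exonic length: Ndufs1 then made up 0.843% to 1.85% and 3.22% to 5.74%, and Atp5l 1.83% to 1.92% and 4.06% to 5.58%.

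**Figure D3:**
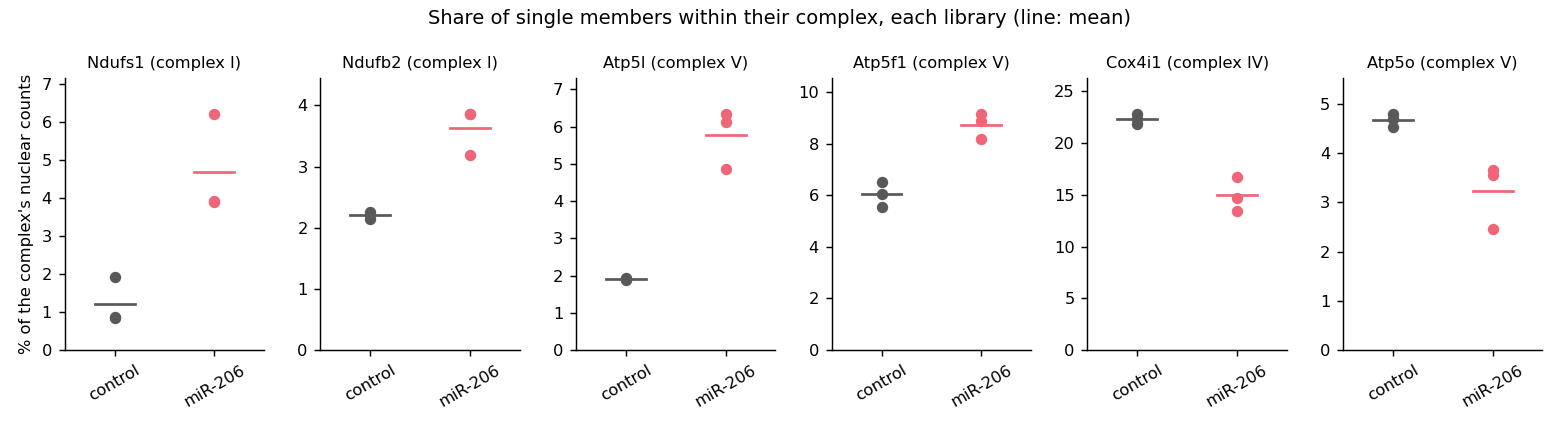
Share of 6 members in the summed nuclear counts of their complex (percent, each axis from 0) in the 3 control and 3 miR-206 libraries, with the mean as a line. Ndufs1, Ndufb2, Atp5l and Atp5f1 lie higher in every miR-206 library, and Cox4i1 and Atp5o lower.

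The 13 mitochondrially encoded subunits did not follow the nuclear members. All 13 were tested and none passed the edgeR test, with a median of 0.32. Examples are mt-Nd1 (0.80, adjusted p = 0.425) and mt-Nd4l (0.48, adjusted p = 0.567). Summed mitochondrial counts of complex I were 50.7, 5.53 and 6.17 times the nuclear counts of the complex in control 1 to 3 and 47.3, 442 and 265 times in miR-206 1 to 3. For complex IV they were 69.3, 7.46 and 8.86 times and 73.1, 822 and 463 times. The ratio in miR-206 1 was near that of control 1 and far below miR-206 2 and 3, so that the groups overlapped in complex I, as they did in complex III (104, 7.29 and 8.92, then 65.1, 616 and 419). In complexes IV and V every miR-206 library was above every control, by a narrow margin in miR-206 1 (73.1 against 69.3 in complex IV, and 0.995 against 0.919 in complex V).

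**Figure D4:**
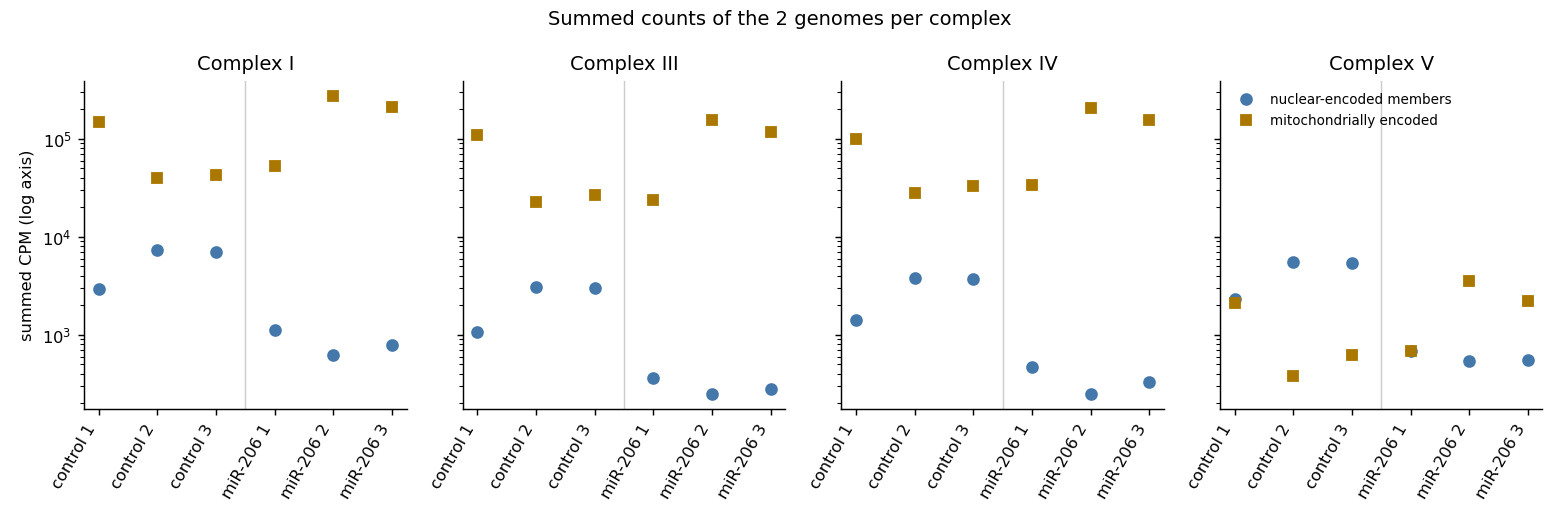
Summed CPM (log axis) of the nuclear-encoded members (circles) and the mitochondrially encoded subunits (squares) of complexes I, III, IV and V in each library. Nuclear sums of each miR-206 library lay below those of all controls, while mitochondrial sums were high in control 1, miR-206 2 and miR-206 3.

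Genes that build and feed the chain were described from lists. Assembly factors of complex I fell in 15 of 16 tested genes (median -1.90), among them Ndufaf8 (-3.41, SE 0.43) and Dmac1 (-4.15, SE 0.47). Those of complex IV fell in 17 of 20 (median -2.39), among them Surf1, needed to insert haem (-4.53, SE 0.43), and Coa3 (-3.74). Those of complexes II, III and V fell in 3 of 4, 3 of 6 and 3 of 4 genes, with medians of -2.48, -1.27 and -2.52. They include Sdhaf2 (-3.45), which helps to add the flavin to Sdha, Sdhaf4 (-2.52), Uqcc2 (-3.22), Uqcc3 (-4.04), Fmc1 (-3.68) and Atpaf2 (-2.25). The medians of these 5 lists were nearer to 0 than those of the subunits of the same complexes, a difference that was not tested. A mean count of at least 10 times the receptor background kept 75 of the 78 tested subunits. For assembly factors of complexes I to V it kept 10 of 16, 1 of 4, 4 of 6, 13 of 20 and 3 of 4. The part of background in the smaller falls of these lists was not tested.
All 13 enzymes of the tricarboxylic acid cycle fell (median -3.02), among them Mdh2, which makes oxaloacetate (-3.95), and Idh3b, a subunit of isocitrate dehydrogenase (-3.996). Electron carriers and coenzyme Q genes fell in 16 of 19 (median -2.75), among them Etfb, a flavoprotein that takes electrons from fatty acid oxidation (-4.42), and Coq2, which prenylates the ring of coenzyme Q (-3.02). Regulators of mitochondrial genes fell in 9 of 12 (median -1.42), with Esrra (-4.36, SE 0.82), an orphan nuclear receptor, and Tfb1m (-2.79), a mitochondrial rRNA methyltransferase, of the smallest p. No gene of these 8 lists rose on this scale.

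The number of members called depended on how the libraries were scaled, on which genes were kept and, with fewer genes kept, on subtraction of the receptor background. With library size alone 74 members fell and 1, Cox7b2, rose, where falls made up 15.5% and rises 47.7% of all genes tested. With libraries scaled on hepatocyte marker genes 63 fell and Cox7b2 rose, where 4.1% of all genes fell and 54.2% rose, and the median of the members was -1.75. With the receptor background subtracted and the genes otherwise filtered as before, 76 members fell and Cox7b2 rose, where 29.2% of 18627 genes fell and 25.4% rose, and the median of the members was -3.03. Cox7b2 was above the count filter in the miR-206 libraries and in no control, so that it was tested through the group where it is high. With nuclear protein-coding genes kept whose mean counts were at least 10 times the background, and scaled anew, 59 members fell without subtraction, where 18.8% of the 4213 genes fell and 21.3% rose, and the median was -1.21. With subtraction as well, 45 members fell, where 15.7% of 4209 genes fell and 19.3% rose, and the median was -0.94, beside -0.14 over all genes kept. Ndufs1 rose in both of these fits (0.91, edgeR adjusted p = 0.0289, and 0.97, adjusted p = 0.0437), but fell with subtraction alone (-1.03, adjusted p = 0.0233). With subtraction and the 10-fold minimum set on the mean ratio, 59 fell and none rose, where 20.3% of 6458 genes fell and 18.5% rose, and the median was -1.24.
By complex, the falls with subtraction and the 10-fold minimum on mean counts were 20 in complex I, 1 in complex II, 6 in complex III, 10 in complex IV and 8 in complex V. Cox4i1 fell under each of these treatments (-3.64 with library size alone, -2.65 with hepatocyte scaling, -3.81 with subtraction alone, -2.04 with the 10-fold minimum alone and -1.72 with both). Atp5l fell with subtraction alone (-1.64, edgeR adjusted p = 0.0103) and did not pass with hepatocyte scaling (-0.13), the 10-fold minimum alone (0.35) or both (0.45). In the miR-206 libraries, 42 of the 83 members lay at 10 or more times the receptor background in each library, 75 at 3 or more times, and 7 at or under it in at least 1. The 10-fold minimum on mean counts was set over all 6 libraries and kept 75 members. Members could thus be kept through the controls, as was Atp5l, at 5.47 times the background in the miR-206 libraries. Falls among the genes kept are therefore partly built in. Scaling on hepatocyte genes left only 3 of 20 complex IV assembly factors and 1 of 16 complex I assembly factors lower, with 4 of 13 tricarboxylic acid cycle enzymes, 3 of 19 electron carrier genes and none of 12 regulators. On that scale 3 regulators, 2 complex IV and 1 complex I and 1 complex V assembly factors, and 1 electron carrier gene rose, and library size alone gave 2 regulators lower and 3 higher.

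**Figure D5:**
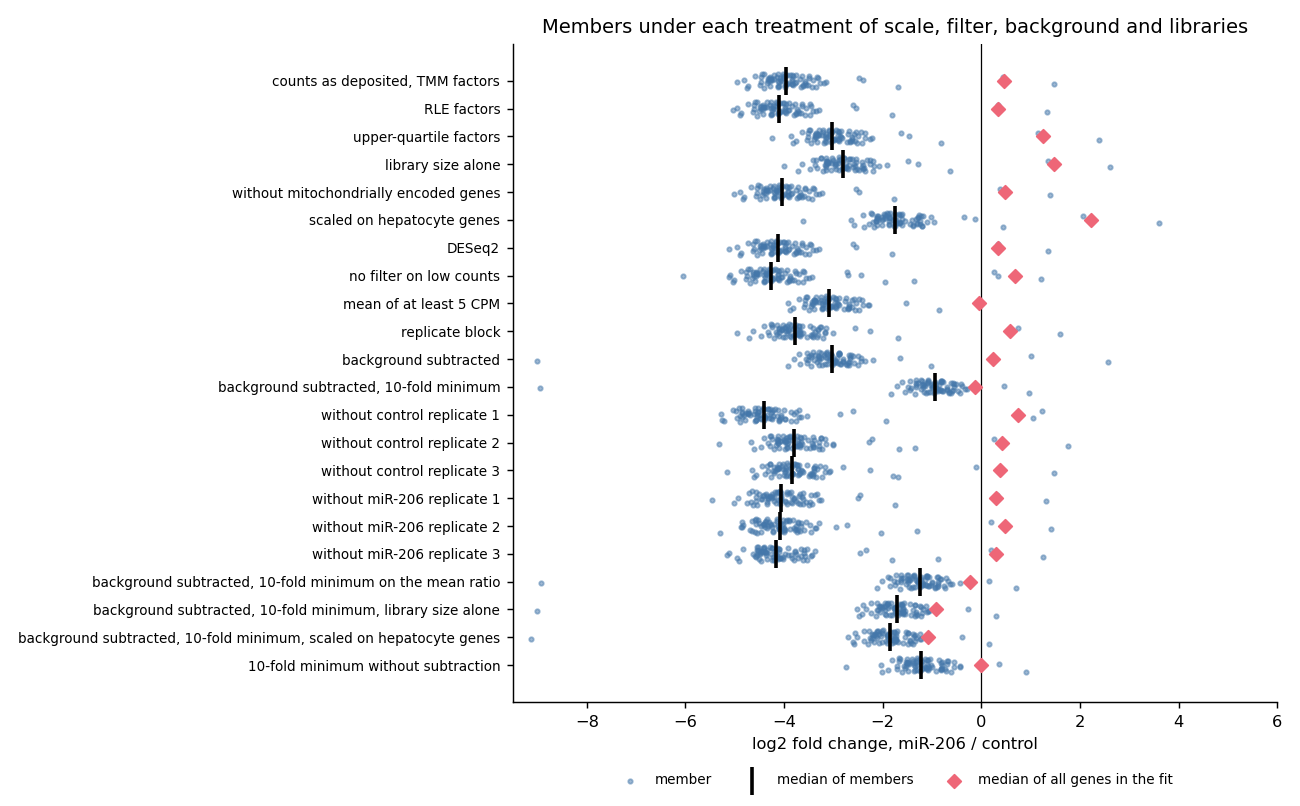
Log2 fold change of each member (points), their median (bar) and the median of all genes in the same fit (diamond) under each treatment of scale, filter, background and libraries. The median of the members lies below that of all genes in every row, at -3.97 against 0.45 with the counts as deposited, -3.03 against 0.23 with background subtracted and -0.94 against -0.14 with the 10-fold minimum as well, and the point near -9 is Cox7a1, whose fitted value after subtraction is no bound.

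Markers of other liver cells also differed between the groups, and their part in the falls of the members was not tested. Calls are on the TMM scale unless stated, where 29.6% of all genes tested fell and 25.8% rose. All 12 Kupffer cell markers fell, with a summed level of 527 to 1244 CPM in the controls and 92.5 to 135 CPM with miR-206. All 10 sinusoidal endothelial markers fell (399 to 523 and 136 to 238 CPM), as did 5 of 9 stellate (229 to 536 and 129 to 198 CPM) and 4 of 6 cholangiocyte markers (538 to 2564 and 50.01 to 199.9 CPM). With library size alone 10 of 12 Kupffer, 7 of 10 endothelial, 4 of 9 stellate and 3 of 6 cholangiocyte markers fell, and 1 cholangiocyte marker rose. With hepatocyte scaling 9, 3, 2 and 2 of these fell, and 1 stellate and 1 cholangiocyte marker rose. With subtraction and the 10-fold minimum on mean counts, 8 of 12 Kupffer markers fell. In that fit 2 of 9 endothelial markers fell and 3 rose. Of 7 B and plasma cell markers 4 fell and 2 rose (271 to 326 and 29.6 to 56.0 CPM), and of 6 T and NK cell markers 1 fell and 1 rose (28.2 to 35.4 and 45.4 to 64.5 CPM). Of 5 neutrophil markers 2 fell (17.2 to 22.6 and 13.4 to 28.1 CPM), and of 5 red cell markers 1 fell (32.6 to 101 and 20.0 to 64.5 CPM).
Hepatocyte markers fell in 9 of 14 tested genes, with sums of 61190 to 108214 CPM in the controls and 22586 to 103175 CPM in the miR-206 libraries, so the labelled cell type was present in every library and the groups overlapped. With library size alone 2 of the 14 fell and none rose, and with subtraction and the 10-fold minimum on mean counts 2 fell and 8 rose. Striated muscle markers, of interest for the muscle forms above, rose in 3 of 7 (9.45 to 18.4 and 53.1 to 83.2 CPM). No striated muscle marker was left to test under the 10-fold background minimum, on mean counts or on the mean ratio. The part of background in these rises was not tested. Brown fat markers fell in 1 and rose in 1 of 3 (76.1 to 98.4 and 40.9 to 95.2 CPM). None of these marker genes was at 0 in all 3 miR-206 libraries.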

How the data were processed

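The authors deposited raw counts per Ensembl gene, whole numbers with no normalisation, with a column for each library. Per the labels, total RNA was purified on micro columns and made into SMARTER mRNA libraries. The builds in the submitters' processing notes are GRCm 38 and mm 10. Not given in the sources used here are the aligner, counting program, annotation release and strand setting, which leaves counts of overlapping genes and close paralogs uncertain. No label ties a library to a mouse, so p-values measure the spread between these samples, which may be technical.

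Genes were filtered with filterByExpr (minimum count 10), scaled by TMM and tested over all genes in edgeR 4.0.16 (quasi-likelihood F test with robust dispersions, group alone, Benjamini-Hochberg adjusted p under 0.05) in R 4.3.3. All 6 libraries entered the fit, and the script was tested on simulated data. CPM are counts scaled to the library total. Exonic lengths are from GENCODE M21, to which 49056 genes matched. The background was the count per exonic kb over 1702 olfactory and vomeronasal receptor genes, those of 1710 so named with a length in M21. DESeq2 1.42.0, RLE, upper-quartile and library-size scaling, scaling on hepatocyte markers, other filters, a replicate block, background subtraction and leaving out each library were alternatives. The 10-fold minimum on the mean ratio or without subtraction and 2 scalings of the corrected counts were added after seeing the data. Summaries used Python 3.11.15, numpy 2.4.6 and pandas 2.3.3.

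The members, gene lists and tests were chosen with earlier results of these data known. Named genes are, by complex, the members with the highest counts per exonic kb (4 to 6), the 2 with the highest and the 2 with the lowest fold change, all tissue-restricted isoforms, and the 2 genes of smallest p in each list. The other core subunits named, Ndufb2 and Atp5f1 were chosen after their values were seen, and some values of single genes are not reported here. Total counts ran from 4157947 to 15244017, and 3 counts, the limit that a count of 0 allows, are 0.197 to 0.722 CPM.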

Additional observations from a re-analysis of the deposited data

How the results depend on the processing

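Of the settings compared, DESeq2, RLE factors, the fit without mitochondrially encoded genes and each library left out gave 76 members lower and none higher. With 1 library left out the median of the members was -4.40 to -3.80. No pairing by replicate number showed in the counts. Correlations of deviations between same-numbered samples were 0.00818, 0.0230 and -0.00644, and not every sample correlated best with its own number. With 3 libraries a group these values cannot settle whether same-numbered libraries share a mouse. The fit with a replicate block again gave 76 and none (median -3.79, with 12059 against 13502 calls over all genes). Without a count filter 78 of 83 fell.

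One member was higher with upper-quartile factors, library size alone, hepatocyte scaling and background subtraction (Cox7b2 each time), and 1, Ndufs1, with the 10-fold minimum, where 45 fell with subtraction and 59 without. Subtraction alone gave 76 lower. The median moved beyond the spread between replicates (0.553) to -3.03 with upper-quartile factors, -2.81 with library size, -1.75 with hepatocyte scaling, -3.09 with a mean of at least 5 CPM, -3.03 with background subtracted, -0.94 with the 10-fold minimum as well, -1.21 with that minimum and no subtraction, -1.24 with that minimum on the mean ratio, and -1.70 and -1.85 with corrected counts on library size and hepatocyte scaling. The cause was not tested. Scaling moved the median of all genes from 0.45 to 0.35 (RLE), 1.25 (upper quartile), 1.47 (library size) and 2.23 (hepatocyte). Relative to it, the median of the members was -4.42, -4.46, -4.27, -4.28 and -3.98, -3.26 with subtraction alone, -1.21 with the 10-fold minimum alone, and -0.80 or -1.01 with both (minimum on mean counts or on the mean ratio). The split of all genes into 6289 higher and 7213 lower became 10629 and 4812, 11642 and 3774, or 13208 and 1000 with upper-quartile, library-size and hepatocyte scaling.

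Some named genes changed sign, for causes not tested. Ndufs1 was 0.43 with hepatocyte scaling, 0.91 with the 10-fold minimum alone, and 0.97, 0.69, 0.29 and 0.16 with subtraction and that minimum (on mean counts, on the mean ratio, and with library-size or hepatocyte scaling). Atp5l (0.35, 0.45, 0.16), Atpaf2 (0.45, 0.39, 0.0907) and Sdhaf4 (0.23, 0.38, 0.0896) were positive in the first 3 of those fits. They stayed negative with library-size (-0.26, -0.47, -0.35) or hepatocyte scaling (-0.38, -0.67, -0.48) of the corrected counts and with subtraction alone (-1.64, -1.67, -1.71). With 1 library left out Cox8c ran from -0.10 (without control 3) to 1.23, and mt-Nd4l from -0.246 (without miR-206 2) through -0.0157 (without control 2) to 1.60. Depth limits the 5 members that were not tested.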

Other observations

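Among the 76 members that fell, larger exonic length went with smaller falls. The log2 fold change and the log2 exonic length correlated with Pearson's r 0.48 and Spearman's rho 0.377 across these genes, which share the same 6 libraries and are not independent replicates. The 38 members shorter than the median of 1696 bases had a median fold change of -4.01 and the 38 longer members -3.89. The 2 with the smallest falls above the background, Ndufs1 (8086 bases) and Atp5l (6443 bases), are long. After background subtraction with the 10-fold minimum, 75 of the 76 were kept and 73 lay below 0, and r was 0.327. The fold change also correlated with the control CPM (rho -0.527), with larger falls at higher control levels. The control level enters the fold change itself, and these genes were selected as falling. A negative rho is therefore partly built in, and no conclusion is drawn from it.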
